A study of Mus musculus with 24 samples.

Results

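The nuclear-encoded genes of respiratory complex III, complex IV and ATP synthase were followed in single mouse haematopoietic stem cells (HSCs). Members were taken by name, as every entry of the count table with a name that starts with Uqcr, Cox4, Cox5, Cox6, Cox7, Cox8 or Atp5, which gave 44 of 27297 entries. Of these, 8 fall under complex III, 19 under complex IV and 17 under ATP synthase. All HSCs were sorted from bone marrow as CD150+ and CD48- cells of the Kit+ and Sca-1+ lineage-negative pool of the reporter strain -60/DR5-TA-RA-CFP, in which a cyan fluorescent protein (CFP) reads out retinoic acid signalling. No cell without the reporter was among them, and the sources used here do not give the age of the mice. Single cells were index sorted, so that the cytometer recorded the CFP of each cell, and 1430 cells from 4 sort plates were used. Within a plate the 20% of cells with the most CFP were called bright (286 cells), the 20% with the least dim (286 cells) and the rest intermediate (858 cells), after the share that the labels give for sorted bulk samples of the series, which were not analysed here. The study's title asks how cell-cycle status relates to differences among HSCs. The 4 plates are technical replicates of a pooled collection, since no map leads from the wells to the 8 single-cell samples or to mice. The SDs and tests below thus rest on differences between plates, those of edgeR mostly on a spread pooled over all genes. None measures a spread between mice. On the stricter reading that the pool is 1 sample, the values stand and the tests fall away.

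Complex III passes electrons from ubiquinol to cytochrome c, complex IV passes them on to oxygen, and both pump protons across the inner mitochondrial membrane. ATP synthase lets the protons back through a rotor ring and makes ATP from the turning. Each complex is built of many nuclear-encoded subunits, and a smaller part of each, ATP synthase included, is encoded in mitochondrial DNA. HSCs at rest are known for leaning on glycolysis, and mitochondrial activity is known to increase when they leave quiescence.

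The members were a small part of the transcriptome. Among those with enough counts to be tested, detection ran from 7.69% of cells (Uqcrc2) to 84.8% (Cox4i1). All members together held 36124 UMIs, 1.71% of all UMIs, with 0.252% in complex III, 0.649% in complex IV and 0.812% in ATP synthase. A UMI is 1 tagged molecule, and levels are given in CPM, the UMIs of a gene scaled to a common library total, which depend on capture at the poly(A) end and are not divided by gene length. Since each molecule is primed once at its poly(A) tail, values compare one gene between groups of cells, and the order of genes in CPM is only a description. In the mean over plates complex III was led by Uqcrh, the hinge subunit (632 ± 376 CPM, SD, n = 4), and Uqcr11, a small subunit listed as Uqcr;Uqcr11 (463 ± 72.1 CPM). Complex IV was led by Cox4i1, the common form of subunit 4 (1684 ± 157 CPM), and Cox8a, the common form of subunit 8 (1120 ± 116 CPM). ATP synthase was led by Atp5b, the catalytic beta subunit (1221 ± 343 CPM), and Atp5e, the epsilon subunit of the central stalk (1075 ± 65.3 CPM).

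Of the 44 members, 32 had enough counts to be tested (123 UMIs or more), 7 in complex III, 11 in complex IV and 14 in ATP synthase. The 12 others had at most 66 UMIs, and Cox7b2, Cox6a2 and Cox8c had 0. Forms known from muscle or testis were among these 12, such as Cox7a1, Cox8b and Cox6a2. So were 5 subunits that most cells use, Uqcrb, Cox7a2, Cox7b, Atp5l and Atp5g2, with 23, 21, 52, 2 and 11 UMIs. The sources used here do not say whether reads shared with near-identical copies were dropped in counting, so the levels of these 5 are uncertain. Atp5g1 and Atp5g3, which encode the same mature ring subunit, had 105 ± 23.8 and 831 ± 41.1 CPM. The name rule also took in Cox4nb, listed as COX4AL;Cox4nb, Atp5s and Atp5sl. RefSeq names them Emc8, Dmac2l and Dmac2, and they are not regarded as subunits of these complexes. They were still kept in the sums below, Cox4nb under complex IV and Atp5s and Atp5sl under ATP synthase. Cox4nb and Atp5sl were tested and are also in the counts and medians of tested members. The subunits from mitochondrial DNA were looked for under 6 names and 0 had a row in the table.

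Plate totals ran from 483734 to 563679 UMIs and the median cell had 1265. The bright libraries held between 135701 and 170837 UMIs each, the intermediate ones between 267573 and 314856, and the dim ones between 76354 and 85201, so a gene at the level of Uqcrc1 had only 10 to 11 UMIs in each dim library. The median cell had 1830 ± 118 UMIs in the bright, 1251 ± 136 in the intermediate and 1091 ± 109 in the dim fraction. Genes that mark S phase and G2/M took 1.81 ± 0.195% of UMIs in the bright, 0.841 ± 0.0849% in the intermediate and 0.644 ± 0.0193% in the dim fraction (SD over 4 plates). All 16 genes of the HSC list were detected, and 5 of the 13 tested were lower in bright cells. The summed HSC list ran from 3021 to 3825 CPM in bright and from 3716 to 7181 CPM in dim libraries. The myeloid list ran from 972 to 1098 CPM in bright and from 1305 to 1714 CPM in dim libraries, with 10 of 10 genes detected and 2 of 3 tested genes lower. The erythroid list ran from 2380 to 4670 CPM in bright and from 3082 to 7848 CPM in dim libraries, with 9 genes detected and 0 of 4 tested genes called by edgeR or DESeq2 (3 and 0 at an unadjusted p under 0.05). The megakaryocyte list ran from 486 to 825 CPM in bright and from 286 to 576 CPM in dim libraries, higher in bright cells of 3 of 4 plates, and its 5 tested genes had positive fold changes with a median of 0.61 on the log2 scale, of which edgeR and DESeq2 called 0 (2 and 1 at an unadjusted p under 0.05). Of the mature lymphoid genes in the table, those at 0 included Cd79a, Ms4a1, Cd3e, Cd3d and Gzma, and the list, led by Cd74, ran from 346 to 663 CPM in bright and from 572 to 956 CPM in dim libraries. Cd74 itself fell (-1.19 ± 0.22, edgeR adjusted p = 6.4e-06). The part of depth, cycling and these lists in the results below was tested only by the alternatives given beside them.

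The first comparison asked whether HSCs with more CFP hold more or less of these transcripts. In bright cells 6 members rose, Uqcrc1 of complex III, Cox5a and Cox6a1 of complex IV, and Atp5b, Atp5g3 and Atp5o of ATP synthase. Only Cox7a2l fell among the 32 tested members, against the direction of most of the others. The tool was edgeR's quasi-likelihood F test on UMIs summed per plate and fraction, with the plate as a block and a threshold of 0.05 on p adjusted over all 4652 genes tested. Its estimate of a gene's spread came mostly from all genes together (median prior degrees of freedom 276, against 6 from the gene's own libraries). The edgeR errors and p-values are therefore not a measure of each gene's own plate spread. Of the tested members, 18.8% were called higher, against 5.61% of all genes, and 3.13% were called lower, against 3.44% of all genes (9.05% of genes in both directions). The median log2 fold change of the 32 members was 0.26, against -0.027 over all genes tested, and 27 of them (84.4%) had a positive value, against 47.8% of all genes.

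**Figure D1:**
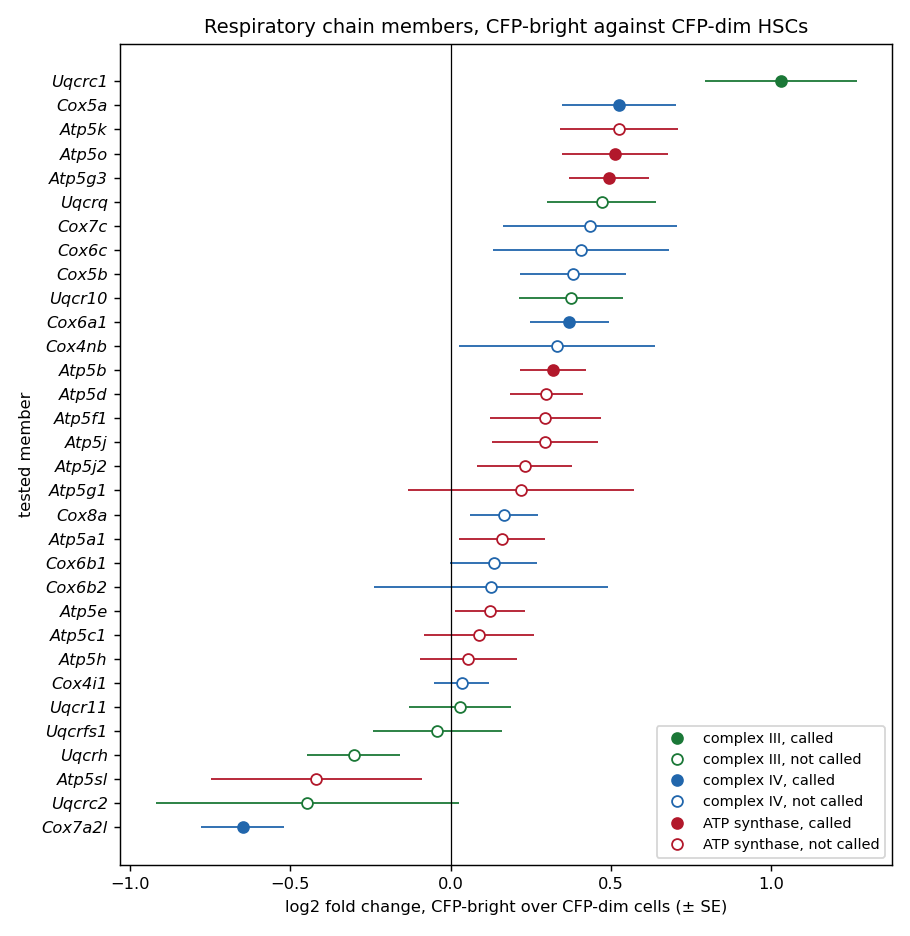
Log2 fold change of each of the 32 tested members in CFP-bright over CFP-dim cells, with the edgeR standard error as a bar. Filled points have an adjusted p under 0.05, 6 on the higher side and Cox7a2l alone on the lower side.

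Cox7a2l encodes a factor that joins complex III and complex IV into a respiratory supercomplex, and it is a relative of the complex IV subunits Cox7a1 and Cox7a2. It had 833, 424, 561 and 568 CPM in bright cells of plates 2, 3, 4 and 5, against 1094, 892, 786 and 885 CPM in dim cells of the same plates. Bright was below dim within each of the 4 plates, and the ranges overlapped because bright cells of plate 2 lay above dim cells of plate 4. The fold change was -0.65 ± 0.13 on the log2 scale (SE, edgeR adjusted p = 4.2e-05), and the mean CPM of bright cells was 0.653 of the dim mean. Of all complex IV UMIs, the share of Cox7a2l was 8.86 ± 2.60% in the bright fraction, 12.5 ± 0.630% in the intermediate one and 14.9 ± 2.35% in the dim one (SD over 4 plates). The call held with each plate left out in turn, with fold changes of -0.73, -0.52, -0.68 and -0.63 without plates 2, 3, 4 and 5 (edgeR adjusted p from 9.0e-05 to 0.017).

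Uqcrc1, the core protein 1 of complex III, had 346, 252, 268 and 252 CPM in bright cells of plates 2, 3, 4 and 5, against 137, 129, 144 and 128 CPM in dim cells. The groups did not overlap, and the bright mean was 2.08 times the dim mean. The fold change was 1.03 ± 0.24 (SE, edgeR adjusted p = 0.00067), and the call held with each plate left out (edgeR adjusted p from 0.0041 to 0.015). Cox5a, a subunit on the matrix side of complex IV, had 501, 530, 383 and 363 CPM in bright cells and 261, 293, 327 and 333 CPM in dim cells. Its groups did not overlap, and the fold change was 0.53 ± 0.18 (edgeR adjusted p = 0.039). Cox6a1, the common form of subunit 6a, had 884, 961, 1034 and 995 CPM in bright cells and 895, 528, 707 and 859 CPM in dim cells. It was higher in 3 of 4 plates and level in plate 2, with a fold change of 0.37 ± 0.12 (edgeR adjusted p = 0.037).

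Among the ATP synthase genes, Atp5g3, one of 3 genes for the c subunit of the rotor ring, had 951, 935, 1078 and 831 CPM in bright cells of plates 2, 3, 4 and 5, against 771, 669, 563 and 654 CPM in dim cells. The groups did not overlap, and the fold change was 0.49 ± 0.13 (edgeR adjusted p = 0.0028). Atp5o, the subunit that ties the catalytic head to the side stalk, had 494, 530, 536 and 468 CPM in bright cells and 311, 329, 419 and 346 CPM in dim cells. It did not overlap either, with a fold change of 0.51 ± 0.17 (edgeR adjusted p = 0.029). Atp5b had 862, 1631, 1595 and 1616 CPM in bright cells and 758, 1232, 1284 and 1218 CPM in dim cells. It was higher in each plate by 1.14 to 1.33 times, and the groups overlapped through plate 2, whose levels were low in both fractions (fold change 0.32 ± 0.10, edgeR adjusted p = 0.027).

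**Figure D2:**
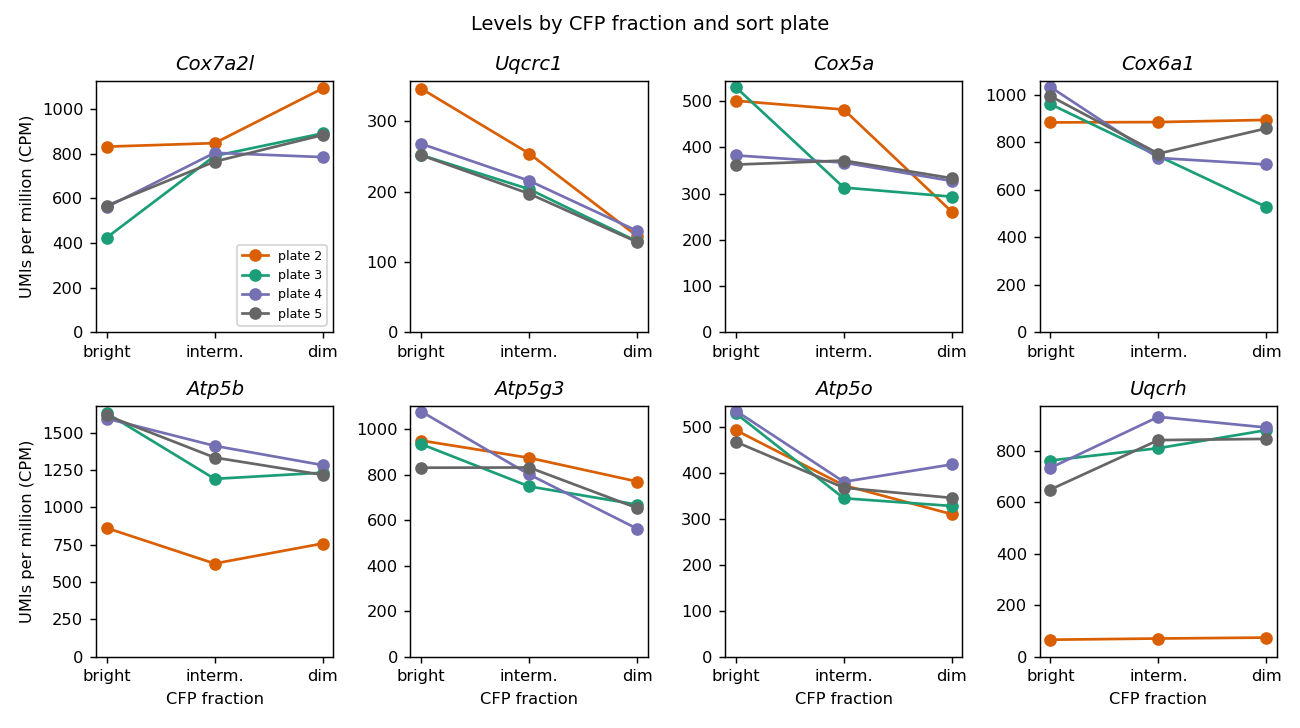
Level in CPM by CFP fraction for the 7 members called in bright against dim cells and for Uqcrh, with 1 line per sort plate. Cox7a2l is lower and Uqcrc1 higher in bright than in dim cells of all 4 plates, and Uqcrh of plate 2 lies near 70.3 CPM, far under the other plates.

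Of the 6 higher calls, 5 were lost with at least 1 plate left out. Atp5b was not called without plate 3 (edgeR adjusted p = 0.16), plate 4 (0.070) or plate 5 (0.14), nor Cox6a1 without plate 3 (0.40), plate 4 (0.18) or plate 5 (0.056). Atp5o was not called without plate 2 (edgeR adjusted p = 0.096), plate 3 (0.14) or plate 5 (0.066), Cox5a without plate 2 (0.21) or plate 3 (0.26), and Atp5g3 without plate 4 (0.12). Uqcrq, a small subunit of complex III, and Atp5k, subunit e of ATP synthase, lay just past the threshold with fold changes of 0.47 ± 0.17 and 0.52 ± 0.18 (edgeR adjusted p = 0.060 and 0.0505). Uqcrq was called without plate 2 (edgeR adjusted p = 0.028) and Atp5k without plate 3 (0.049). DESeq2 called 2 members higher and 1 lower, against 3.52% of its genes in both directions. The number of members called higher by edgeR was 5 without plate 2 and 3 without each of plates 3, 4 and 5. Over all genes, edgeR called 368 of 4485, 283 of 4507, 268 of 4367 and 257 of 4348 without plates 2, 3, 4 and 5, in both directions.

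All called members lost their call in 3 alternatives. With the 20% of cells highest in S phase and G2/M genes left out of each plate, 0 of 29 tested members passed and Cox7a2l stood at -0.25 and Uqcrc1 at 0.51 on the log2 scale (edgeR adjusted p = 0.70 and 0.68), where 4 of 2433 genes (0.164%) passed in all. With the map group as a term, 0 of 25 tested members passed (0.147% of all genes), and Cox7a2l stood at -0.24 and Uqcrc1 at 0.91 (edgeR adjusted p = 0.74 and 0.27). With bright and dim cells matched on UMIs per cell, Cox7a2l stood at -0.44 and Uqcrc1 at 0.64 (edgeR adjusted p = 0.24 and 0.45), and of 26 tested members 2 passed, Atp5d and Atp5k, both higher (3.45% of all genes, in both directions). These fits hold fewer cells or fewer genes, and Cox7a2l stayed below 0 and Uqcrc1 above 0 in all 3.

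The 25 tested members that were not called ran from -0.45 (Uqcrc2, core protein 2 of complex III) to 0.52 (Atp5k). In complex III the median log2 fold change was 0.029, and 4 of 7 members were positive. Uqcrh had 66.3, 762, 734 and 650 CPM in bright cells of plates 2, 3, 4 and 5, against 74.6, 880, 891 and 846 CPM in dim cells, lower in bright cells of each plate but not called (-0.30 ± 0.15, edgeR adjusted p = 0.20). Uqcr10, a small subunit (0.38 ± 0.16, edgeR adjusted p = 0.14), Uqcr11 (0.029 ± 0.16, edgeR adjusted p = 0.95) and Uqcrfs1, the Rieske iron-sulfur protein (-0.042 ± 0.20, edgeR adjusted p = 0.94), were not called. In complex IV the median was 0.33, and 10 of 11 members were positive, all but Cox7a2l. The most abundant, Cox4i1, had 1916, 1710, 1601 and 1487 CPM in bright and 1777, 1690, 1493 and 1500 CPM in dim cells, and its fold change was 0.034 ± 0.086. In ATP synthase the median was 0.26, and 13 of 14 were positive, with Atp5sl, taken in by its name only, as the exception. The catalytic alpha subunit Atp5a1 (0.16 ± 0.13), Atp5e (0.12 ± 0.11) and Atp5d, the delta subunit of the central stalk (0.30 ± 0.11, edgeR adjusted p = 0.087), were among the members not called.

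By ranges, 5 members (15.6%) had every bright plate above every dim plate, Uqcrc1, Cox5a, Atp5d, Atp5g3 and Atp5o, against 6.04% of all genes tested. None had every bright plate below every dim plate, against 2.58% of all genes. Within plates, 13 members (40.6%) were higher in bright cells of all 4 plates, against 13.9% of genes, and 2 (6.25%), Uqcrh and Cox7a2l, were lower in all 4, against 11.3% of genes. Summed over all members, bright cells had 18340 ± 1452, intermediate 16758 ± 1357 and dim cells 15895 ± 1084 CPM. Complex IV had 6740 ± 162 CPM in bright and 6153 ± 182 CPM in dim cells, with no overlap. Without Cox7a2l, left out because it was known to run the other way, complex IV had 6143 ± 248 and 5239 ± 273 CPM, also with no overlap. The bright mean was 1.10 times the dim mean with Cox7a2l in the sum and 1.17 times without it. ATP synthase had 8987 ± 858 and 7394 ± 683 CPM in bright and dim cells, and complex III 2613 ± 494 and 2348 ± 289 CPM, both with overlap between plates. Within plates, ATP synthase was higher in bright cells of all 4, by 1.18 to 1.24 times, and complex III of 3, with ratios from 0.969 to 1.17.

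Set against intermediate cells, bright cells gave 5 calls among the members, against 8.77% of all genes tested. In bright against intermediate cells, 4 members were called higher (12.5%, against 5.42% of all genes), Atp5b, Atp5k, Atp5o and Cox6a1, with log2 fold changes from 0.30 to 0.48. Cox7a2l was again the 1 member called lower, at -0.47 ± 0.11 (edgeR adjusted p = 0.0012; 3.35% of genes), and without plate 3 it stood at -0.35 (edgeR adjusted p = 0.12). The higher calls numbered 4 without plate 2, 1 without plate 3, 1 without plate 4 and 0 without plate 5. Over all genes, these fits called 331 of 4485, 256 of 4507, 249 of 4367 and 237 of 4348, in both directions. This comparison shares its bright cells with the one above. In intermediate against dim cells 0 members passed by edgeR or by DESeq2 (0.0215% of genes, 1 gene in all, by edgeR), 2 members, Uqcrc1 at 0.69 ± 0.23 and Atp5g3 at 0.29 ± 0.12, had an unadjusted p under 0.05, and Cox7a2l stood at -0.18 ± 0.12.

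In 5 CFP bins of equal size within each plate, Cox7a2l averaged 914 ± 129, 760 ± 64.7, 856 ± 82.1, 797 ± 67.0 and 595 ± 172 CPM (SD, n = 4 plates) in bins 1 to 5, low to high CFP. The step lay between the highest bin and the others, and bins 2 to 4 did not run in one direction. Uqcrc1 averaged 135 ± 6.99, 210 ± 59.1, 229 ± 39.2, 213 ± 43.1 and 278 ± 44.2 CPM, with one step above the lowest bin and one at the highest. Atp5g3 averaged 666 ± 84.7, 694 ± 128, 841 ± 99.4, 885 ± 88.8 and 951 ± 103 CPM, higher in each bin than in the one before. In a trend fit over the bins, 7 of 31 tested members were called higher (7.08% of all genes in that fit), the same as above but without Atp5b and with Atp5k and Uqcrq, and Cox7a2l was called lower (4.49% of genes). S phase and G2/M genes together stood at 6442 CPM in bin 1, 9618 CPM in bin 4 and 18067 CPM in bin 5, and the HSC list at 5802, 4734 and 3520 CPM in the same bins. Their part in the steps of the members was not tested beyond the alternatives above.

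**Figure D3:**
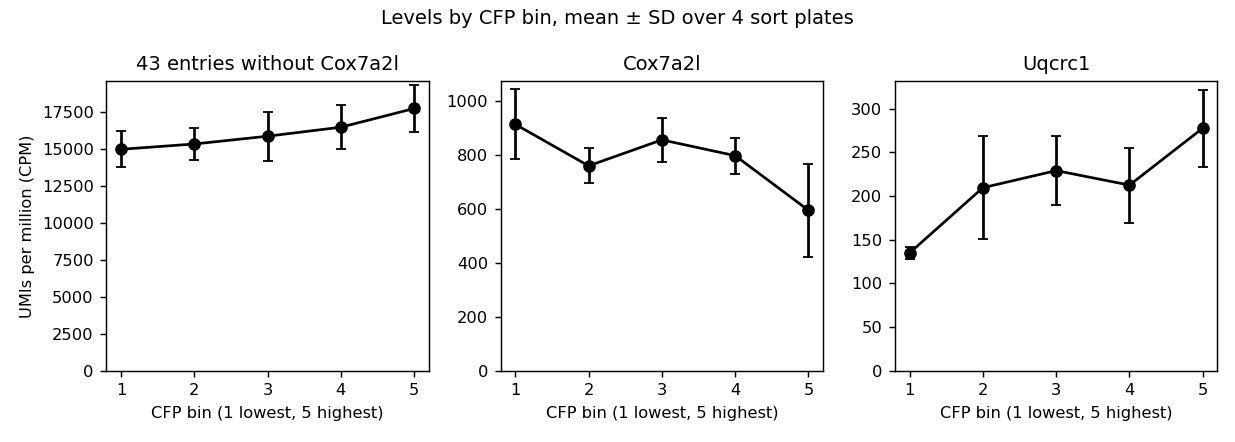
Mean level with SD over the 4 sort plates in 5 CFP bins for the sum of 43 members without Cox7a2l, for Cox7a2l and for Uqcrc1. The sum increases from 14994 to 17756 CPM across the bins, and Cox7a2l is lowest in bin 5 at 595 CPM.

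The promoters of Cox7a2l, Uqcrc1 and Atp5g3 are shown because these genes gave the lowest adjusted p-values of the members, one on the lower and 2 on the higher side. Each sequence holds 250 bases before and 50 bases after the gene's start, 5′ to 3′ on the gene's strand, from RefSeq on GRCm38.p6, and capitals mark the letters of any motif found. Cox7a2l lies at chr17:83514284-83514583 on the minus strand, Uqcrc1 at chr9:108936398-108936697 on the plus strand and Atp5g3 at chr2:73911277-73911576 on the minus strand.
Cox7a2l: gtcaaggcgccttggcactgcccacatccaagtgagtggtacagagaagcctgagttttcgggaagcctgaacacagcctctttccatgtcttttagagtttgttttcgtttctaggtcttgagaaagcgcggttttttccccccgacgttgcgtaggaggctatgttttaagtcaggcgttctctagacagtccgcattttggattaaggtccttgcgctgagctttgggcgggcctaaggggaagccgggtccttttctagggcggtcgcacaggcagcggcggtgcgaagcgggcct
Uqcrc1: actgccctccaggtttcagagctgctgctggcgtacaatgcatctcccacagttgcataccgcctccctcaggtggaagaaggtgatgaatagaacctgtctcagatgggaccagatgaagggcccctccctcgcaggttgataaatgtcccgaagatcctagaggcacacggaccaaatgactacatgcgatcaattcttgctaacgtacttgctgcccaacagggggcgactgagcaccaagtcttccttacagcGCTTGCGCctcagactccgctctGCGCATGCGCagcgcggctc
Atp5g3: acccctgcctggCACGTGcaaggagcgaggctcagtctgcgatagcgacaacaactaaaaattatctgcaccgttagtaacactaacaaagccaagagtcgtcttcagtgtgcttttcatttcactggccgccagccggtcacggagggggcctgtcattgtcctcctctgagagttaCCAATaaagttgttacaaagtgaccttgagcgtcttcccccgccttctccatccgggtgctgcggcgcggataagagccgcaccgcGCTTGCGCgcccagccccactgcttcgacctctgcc
The motifs searched, 5 in all, were read on both strands: GCGCANGC for NRF1 (nuclear respiratory factor 1, known to bind many respiratory chain promoters), CCGGAAG for ETS factors, AAGATGGC for YY1, the E-box CACGTG and the CCAAT box. The letters of NRF1 began in Uqcrc1 at positions 8, 31 and 33 counted from the start, the ones at 31 and 33 overlapping on opposite strands, and in Atp5g3 at position 15. Atp5g3 also held an E-box and a CCAAT box, and the Cox7a2l window held none of the 5 motifs. Of the 32 tested members 26 had a promoter in the table. NRF1 letters were in 8 of them (30.8%), against 10.1% of 27025 promoters, ETS letters in 8 (30.8%, against 9.12%), YY1 letters in 3 (11.5%, against 2.88%), the E-box in 4 (15.4%, against 7.24%) and the CCAAT box in 14 (53.8%, against 37.9%). Of the 6 members called higher, 4 held the NRF1 letters, Uqcrc1, Atp5g3, Atp5o and Cox6a1, and of the 19 not called that had a promoter, 4 did, Atp5h, Atp5j2, Atp5k and Uqcr11. The NRF1 letters are a shortened form, chosen after a longer one that matched fewer promoters had been searched. A match of letters is a description and was not tested.

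The index record gives each cell a map group from 1 to 10 with no meaning stated. Group 1 held 10 cells and was left aside, and groups 2 to 10 held between 33 (group 6) and 330 cells (group 4). The groups may have been made from the same counts, so their levels are a description with no test. Groups 8, 9 and 10 had median CFP ranks of 67.8, 86.2 and 82.0 on a scale to 100 and S and G2/M shares of 1.39%, 1.96% and 2.58%, against ranks from 36.7 to 48.2 and shares from 0.542% to 0.747% in groups 2 to 7.

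Groups 8 and 9 stood above group 4 for the 3 complexes. Group 4, the largest group, was a low reference in CPM. It was the lowest of groups 2 to 10 for all members together and for complex IV without Cox7a2l. Only group 6 was lower for complex III and only group 7 for ATP synthase. With trimmed-mean (TMM) library sizes group 4 was not the lowest. Groups 2, 6, 7 and 10 then lay below it for complex III, ATP synthase and complex IV without Cox7a2l. Groups 3, 5, 8 and 9 lay above it. By library totals alone, all members summed to 15025 CPM in group 4 and to means from 16099 to 18319 CPM in groups 2, 3, 5, 6 and 7. In groups 8 and 9 they summed to 19287 and 18535 CPM. ATP synthase had 9339 ± 1287 CPM in group 8 and 9129 ± 1307 CPM in group 9, against 7026 ± 376 CPM in group 4 (SD, n = 4 plates). Complex IV without Cox7a2l had 6394 ± 599 and 6267 ± 285 CPM in groups 8 and 9, against 4930 ± 194 CPM in group 4, and complex III 2821 ± 650 and 2604 ± 464 CPM, against 2209 ± 342 CPM. With Cox7a2l left out of complex IV, the ratios of groups 8 and 9 to group 4 lay between 1.18 and 1.33. With Cox7a2l in the sum, complex IV had 7126 ± 478, 6802 ± 241 and 5791 ± 134 CPM in groups 8, 9 and 4. In group 8, 16 of 32 members were above group 4 in all 4 plates, against 11.3% of all genes tested, and in group 9, 18 members were, against 17.7% of all genes. Below group 4 in all 4 plates were 2 members in group 8 (13.9% of all genes) and 3 in group 9 (16.3% of all genes), Cox7a2l among the 3. The mean of Cox7a2l was lower in both, at 733 ± 280 CPM in group 8, 535 ± 182 in group 9 and 861 ± 87.1 in group 4.

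Group 10 also had a high CFP rank and the highest S and G2/M share, but not the high sums of ATP synthase and complex IV. Its ATP synthase genes summed to 7461 ± 845 CPM and its complex IV without Cox7a2l to 5668 ± 385 CPM, both within the range of the means of groups 2 to 5. With TMM library sizes they were 6568 and 4984 CPM, below the means of groups 2 to 5. Against group 9, 10 of 32 members were lower in all 4 plates (14.4% of all genes) and 1, Uqcrh, was higher (6.45% of all genes). Atp5g3 stood at 541 ± 235 CPM in group 10, against 1067 ± 138 CPM in group 9. Complex III differed less, at 2472 ± 360 CPM in group 10 and 2604 ± 464 CPM in group 9. Some members went the other way: by mean CPM, group 10 was the highest group for Atp5a1, Atp5f1, Atp5k, Cox7c and Cox6b2. With TMM library sizes Atp5a1 was highest in group 9 instead. These sizes shifted group 10 by -0.18 and groups 8 and 9 by 0.24 and 0.28 on the log2 scale. For the other members named, the order on that scale is not given here. Cox6b2 in group 10 rested on 13 UMIs, with plates from 0 to 406 CPM. Group 10 held 42 cells, from 7 to 15 per plate, so its values are less precise.

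Cox7a2l averaged 975 ± 53.2, 998 ± 146, 861 ± 87.1, 740 ± 67.9, 684 ± 333, 944 ± 165, 733 ± 280, 535 ± 182 and 601 ± 191 CPM in groups 2 to 10. In CPM the order from high to low was 3, 2, 7, 4, 5, 8, 6, 10, 9, and the plates of each group overlapped with those of the next group in it. In group 9, plates 3, 4 and 5 lay at 447, 445 and 441 CPM, and plate 2 stood apart at 808 CPM. Without plate 2 the ratio of group 3 to group 9 was 2.38, against 1.87 with it. The low end of the order depended on the scaling: with trimmed-mean (TMM) library sizes, group 6 was lowest at 443 CPM, then group 10 at 533 CPM and group 9 at 645 CPM, while group 3 stayed highest.

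Groups 6 and 7 had patterns of their own between the complexes. In group 6, ATP synthase was highest, at 9374 ± 1084 CPM, with Atp5e at 1869 ± 330 CPM, against 752 to 1350 CPM as the means of the other groups. Group 7 had the lowest ATP synthase, at 6717 ± 906 CPM, and the highest complex IV without Cox7a2l, at 6510 ± 912 CPM. Within ATP synthase Atp5a1 was low there, at 342 ± 39.5 CPM, against means from 575 to 892 CPM in the other groups, and within complex III Uqcrc1 was high, at 466 ± 200 CPM, against 78.5 to 266 CPM. The Uqcrc1 means rested on 38 UMIs in group 7 and on 3 UMIs in group 6, where it was lowest. Group 7 held from 7 to 52 cells per plate and group 6 from 5 to 14, so values of both are less precise. In group 7, 6 members were above group 4 in all 4 plates (4.19% of all genes) and 2 below (11.5%), and in group 6, 5 were above (3.53%) and 2 below (15.0%). The sums of these 2 groups depended on the scaling. The TMM factors of their small libraries shifted group 6 by -0.69 and group 7 by -0.25 on the log2 scale, while groups 4, 5, 8 and 9 shifted by 0.24 to 0.28. With them, Atp5e averaged 1154 CPM in group 6, below groups 8, 9 and 5 at 1606, 1410 and 1243 CPM, while Atp5a1 stayed lowest and Uqcrc1 highest in group 7. ATP synthase in group 6 over 7 was 1.01 instead of 1.40, complex IV without Cox7a2l in group 7 over 4 was 0.933 instead of 1.32, a turn of direction, and complex III in group 8 over 6 was 2.63 instead of 1.33. With Cox7a2l left out of complex IV, the ratios of groups 8 and 9 to group 4 stayed between 1.21 and 1.34 for the 3 complexes.

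**Figure D4:**
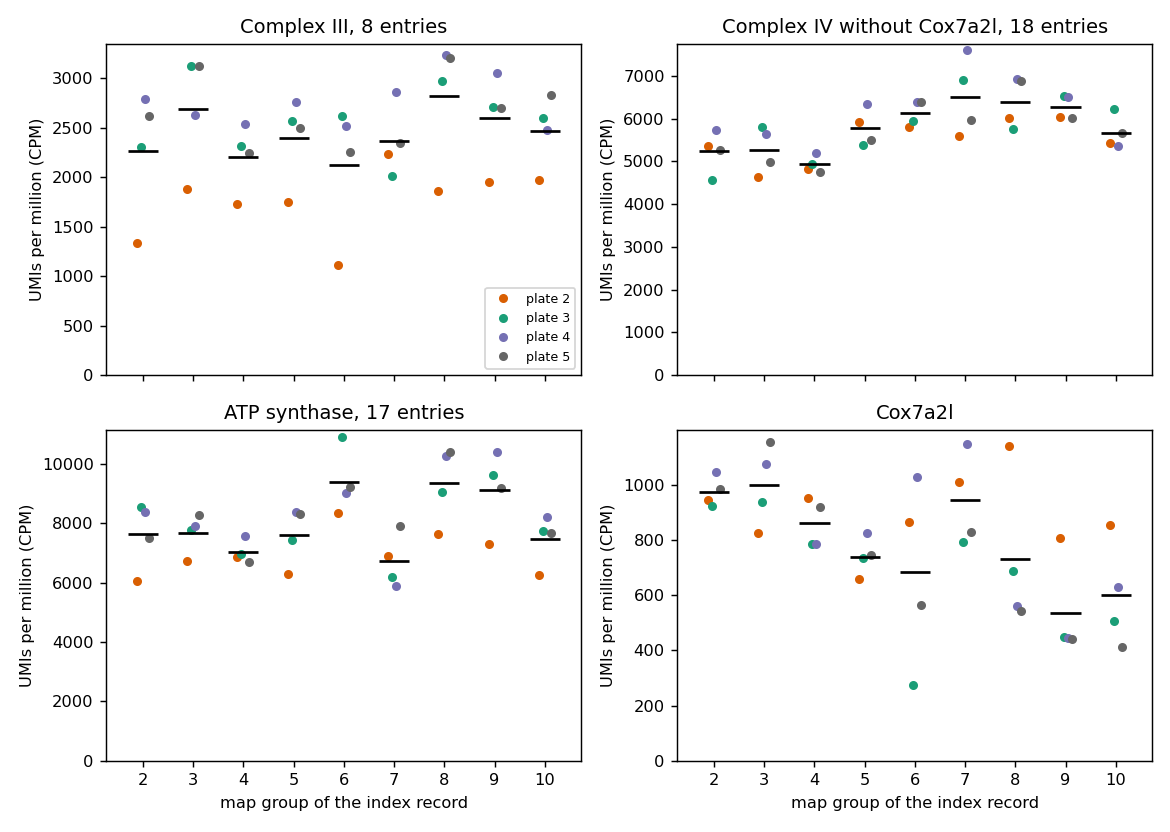
Level in CPM in map groups 2 to 10 for complex III, complex IV without Cox7a2l, ATP synthase and Cox7a2l, with 1 point per sort plate and a bar at the mean. Groups 8 and 9 lie above group 4 in the 3 sums, and Cox7a2l is lowest in group 9 at a mean of 535 CPM on this scale, but in group 6 with TMM library sizes.

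Sort plate 2 stood apart for some members and not for others. With all cells of a plate pooled, Uqcrh had 70.3 CPM in plate 2, against 808, 866 and 784 CPM in plates 3, 4 and 5. Cox6c, a small subunit of complex IV, had 12.4 CPM in plate 2, against 138 to 260 CPM, and Atp5k 72.4 CPM, against 365 to 436 CPM. In all, 6 of 32 tested members were under 0.5 times every other plate in plate 2, also Uqcr10, Uqcrc2 and Cox6b2, against 8.04% of all genes tested. For plates 3, 4 and 5 this count was 0, against 0.365%, 0.150% and 0.150% of genes. Atp5b had 713 CPM in plate 2, against 1319 to 1449 CPM, and Cox6b1 428 CPM, against 746 to 780 CPM. Plate 2 lay below the other plates for 13 of the 32 tested members, within their range for 6 and above them for 13, among these Cox4i1 (1875 CPM, against 1494 to 1706 CPM) and Cox7a2l (885 CPM, against 705 to 728 CPM). Each plate is 1 value, so the difference has no replicate check, and its cause was not tested.

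**Figure D5:**
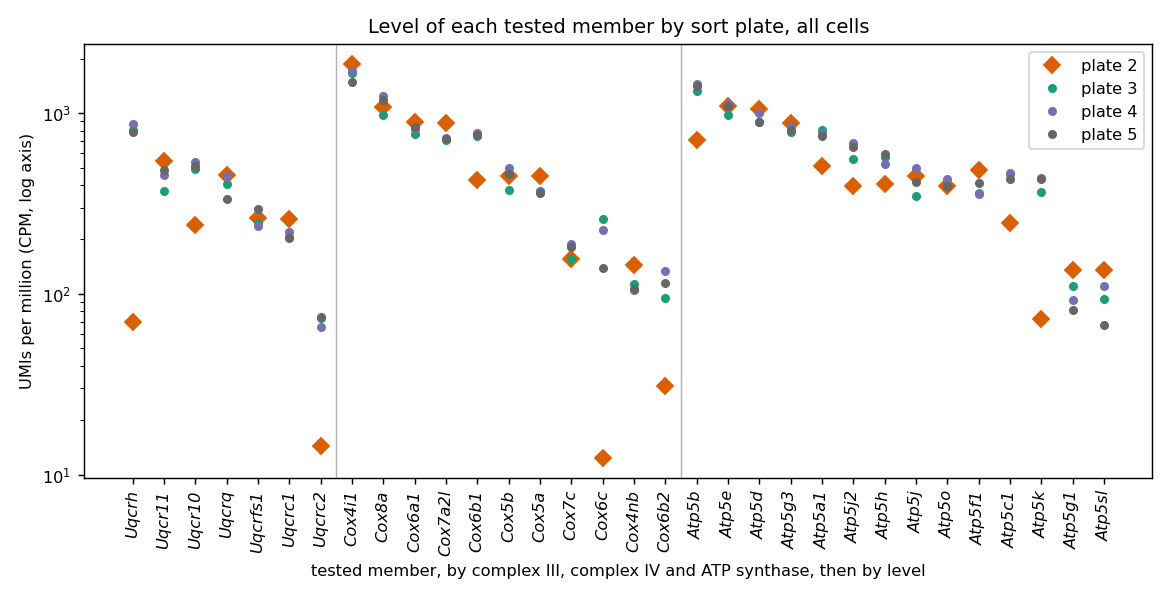
Level of each of the 32 tested members in all cells of a sort plate, on a log axis, with plate 2 as diamonds. Plate 2 lies far below the others for Uqcrh, Uqcrc2, Cox6c, Cox6b2 and Atp5k, within their range for Cox8a and above them for Cox4i1.

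From cell to cell the members together varied by somewhat more than counting alone gives. In the 1025 cells with at least 1000 UMIs, each thinned to 1000, the members together had a median of 17 UMIs, and 80% of cells lay between 11 and 24. The variance over the mean, which counting alone sets near 1, was 1.29 to 1.59 within plates for all members together, 1.11 to 1.51 for ATP synthase, 1.08 to 1.26 for complex IV and 0.993 to 1.24 for complex III. At this depth 51.2% of the cells had a UMI of Cox7a2l and 78.4% one of Cox4i1.

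The other genes of oxidative phosphorylation and its surroundings were counted in bright against dim cells with the same edgeR test. It called 5.61% of all genes higher and 3.44% lower. Of complex I subunits, which feed electrons from NADH into the chain, 35 of 38 were tested. Ndufc1 rose (0.72 ± 0.24, edgeR adjusted p = 0.034) and Ndufa6 fell (-0.42 ± 0.13, edgeR adjusted p = 0.023). That is 2.86% in each direction, below the shares of all genes. The median was 0.16 with 28 positive (80%, against 47.8% of all genes). None of 6 complex II genes, 16 TCA cycle genes, 9 complex IV assembly factors and 6 regulators of mitochondrial gene expression was called by edgeR or DESeq2, with 1, 3, 0 and 1 of them at an unadjusted p under 0.05 by edgeR. Of the tested ATP synthase assembly and regulation genes, 1 of 3 rose, Atpif1, the inhibitor of ATP hydrolysis by ATP synthase (0.43 ± 0.10, edgeR adjusted p = 0.0017). Of 18 tested import and carrier genes 3 rose (16.7%). They were Slc25a5, the ADP/ATP carrier (0.86 ± 0.13, edgeR adjusted p = 1.6e-08), Tomm40, the import pore of the outer membrane (0.99 ± 0.32, edgeR adjusted p = 0.031), and Timm50, a receptor of the inner membrane (0.83 ± 0.27, edgeR adjusted p = 0.030). Of 58 tested mitochondrial ribosome genes, Mrpl18 rose and Mrpl44 fell, 1.72% in each direction and below the shares of all genes. Of 42 tested S phase genes 31 rose (73.8%), and of 38 tested G2/M genes 27 rose (71.1%).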

How the data were processed

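The authors deposited UMI counts per gene entry and well, not normalized, covering 27297 entries in 1536 wells. Their index record lists 1430 sorted wells with the CFP channel as a log10 value and forward scatter as an intensity, per the file headers and the values. The submitters' processing notes name bcl2fastq 2.15.0.4, cutadapt, STAR, featureCounts, DESeq2 and Bismark 0.19.0 and builds mm9 and mm10, without roles; the sources used here do not say how UMIs were counted.

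A minimum of 500 UMIs was set for a recorded well, and every one passed. No doublet caller was run on these sorted wells. UMIs were summed per plate and CFP fraction and tested by the quasi-likelihood F test of edgeR 4.0.16 in R 4.3.3 after its filterByExpr filter and TMM scaling, with Benjamini-Hochberg adjustment over all genes, with the plate as a block, since the fractions of a plate share its sort. In simulated data with 4533 genes, bright against dim, 48.9% of genes changed by 1 on the log2 scale and 93.8% of those changed by 2 were recovered, so smaller changes were often missed. The simulation gave all genes the same spread beyond counting and no difference between plates, so these shares need not hold for the measured genes. Map groups and plates were described by CPM. DESeq2 1.42.0 was an alternative. Named with values were Cox7a2l, called members, the 5 highest per complex and members whose call moved when a plate was left out. The members, lists and tests were chosen with earlier results of these data known. Bulk and bisulphite samples were not analysed here.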

Additional observations from a re-analysis of the deposited data

Results flagged for a closer look

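Each value is the level of a member in all cells of 1 sort plate, set against the other 3 plates; a plate was marked when its gap to the nearest other plate exceeded Dixon's 95% limit for 4 values. Chance marks about 1 in 20 groups, and 39 groups were checked. Plate 2 was low for Uqcrh, the hinge subunit of complex III, at 70.3 CPM, against 784 to 866 CPM in the other plates. It was also low for Uqcrc2 (14.5 CPM, against 65.8 to 74.5 CPM), Uqcr10 (239.8 CPM, against 493 to 535 CPM), Cox6b1 (428 CPM, against 746 to 780 CPM) and Atp5c1, the gamma subunit of ATP synthase (248 CPM, against 431 to 465 CPM). Plate 2 was high for Cox5a (451 CPM, against 364 to 370 CPM) and Cox7a2l (885 CPM, against 705 to 728 CPM). Plate 4 was high for Atp5o, at 434 CPM, against 394 to 397 CPM in the others. With 1 value a plate, the cause was not tested.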

How the results depend on the processing

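In bright against dim cells Cox7a2l stayed below 0 in all 15 alternatives (-0.73 to -0.24) and was called in 11, and Uqcrc1 stayed above 0 in all 15 and was called in 12. Of the other members called higher, Atp5g3 was called in 10 of the 15, Cox5a in 8, Atp5o in 7, Cox6a1 in 5 and Atp5b in 4. Without the replicate block of plates, which share a sort, 1 member was called higher and 0 lower, and Cox7a2l stood at -0.64 (edgeR adjusted p = 0.064); against intermediate cells 0 and 0. DESeq2 called 2 higher and 1 lower, and against intermediate cells 1 and 0. Members called higher ran from 3 to 5, and lower 1 each, when a plate was left out; against intermediate cells from 0 to 4 and from 0 to 1. With the 20% of cells highest in S phase and G2/M genes (cycling cells) left out, 0 and 0 passed in both comparisons, likewise with the map group as a term; matched on UMIs, 2 and 0. Against intermediate cells 30% fractions gave 0 higher calls, a scatter-corrected CFP rank 1 and a minimum of 1000 UMIs a cell 1. All genes called in bright against dim cells numbered 421, and 122 without the block, 268 and 257 without plates 4 and 5, 260 at 1000 UMIs or more, 45 matched, 4 without cycling cells, 2 with the map group and 175 by DESeq2. In bright against intermediate cells 408 became 79 without the block, 256, 249 and 237 without plates 3, 4 and 5, 267 with 30% fractions, 1 without cycling cells, 25 with the map group and 130 by DESeq2. In intermediate against dim cells 1 became 20 without the filter and 3 without plate 5.

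The median of the members in bright against dim cells was 0.18 with 30% fractions, 0.31 at 1000 UMIs or more, 0.14 matched on UMIs, 0.14 without cycling cells, 0.083 with the map group, 0.21 in the trend and 0.18 by DESeq2. In bright against intermediate cells it turned to -0.034 without cycling cells and was 0.017 with the map group. In intermediate against dim cells it was 0.21 without the filter on low counts, 0.12 at 1000 UMIs or more, 0.093 without cycling cells, 0.099 with CFP corrected for scatter, 0.035 with the map group and from 0.064 to 0.11 with a plate left out. Without the filter the median of all genes in bright against dim cells was 0.073, against -0.027 with it.

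Among members not called in bright against dim cells, fold changes turned sign without cycling cells in Atp5e (-0.0013), Cox6b1 (-0.0014), Cox8a (-0.0100), Uqcr11 (-0.083) and Uqcrh (0.11). With the map group they turned in Atp5e (-0.012), Cox8a (-0.013) and Uqcr11 (-0.17). Cox4i1 turned with 30% fractions (-0.028), matched (-0.026) and in the trend (-0.044), Uqcrq matched (-0.24), and Uqcrfs1 without the filter (0.099). With a plate left out, Uqcrfs1 ran from -0.25 to 0.17 and Uqcr11 from -0.071 to 0.26. Cox7a2l in intermediate against dim cells turned with 30% fractions (0.057). Across map groups, TMM scaling gave 2.63 for complex III in group 8 over 6, 0.933 for complex IV without Cox7a2l in group 7 over 4 and 1.01 for ATP synthase in group 6 over 7, and thinned cells gave 1.29 for complex III in group 9 over 4. The cause was not tested in any of these. Dim libraries, with at most 85201 UMIs, limited weakly expressed members.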
